A study of Mus musculus with 2 samples.

Results

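Myh11-high cells were the cells of the cultured white (WAT) and brown (BAT) fat progenitor libraries that carried at least 5 unique molecular identifiers (UMIs, counted mRNA molecules) of Myh11, the smooth muscle myosin heavy chain. To be considered, a cell needed a number of detected genes above 3900 and below 7700, between 6000 and 60000 UMIs, and a mitochondrial share of UMIs below 5%. There were 160 Myh11-high cells among 4452 such cells of WAT and 128 among 6191 of BAT, 288 of 10643 in all. They are described against the remaining 4292 WAT and 6063 BAT cells of their own library, called the other cells. Since Myh11 counts chose the cells, every ratio below describes them and none was tested.

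By the labels, the stromal fraction of subcutaneous white and interscapular brown fat came from newborn (P0) C57/BL6J mice, male and female. The cells were grown to confluency in 4 days before sequencing. The study's own text names a slightly later age and pooled pups, with a longer culture in its results but 4 days to confluency in its methods. The study asked which progenitor populations the cultures of both depots keep. Both libraries used the 10x Genomics 3′ v3.1 chemistry, came from cells for which the labels name no treatment or mutation, and differed in depot and in collagenase time, 35 minutes for WAT and 50 for BAT. With 1 library per depot, the depot, the library, the culture and the digestion cannot be told apart, and no p-value is given. Intervals are 95% intervals that cover counting error only.

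Mural cells wrap blood vessels: smooth muscle cells form the contractile sleeve of arteries and veins, and pericytes sit on capillaries inside the basement membrane they share with the endothelium. Contraction is driven by smooth muscle myosin and actin after calcium and calmodulin activate myosin light chain kinase, and it is relaxed through nitric oxide and cyclic GMP. In fat, perivascular cells lie close to the preadipocytes, fibroblast-like progenitors marked by the receptor Pdgfra and the matrix proteoglycan decorin. Cultured fibroblasts can also switch on Acta2 and other contractile genes, so no one of these genes marks a mural cell by itself.

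The WAT library held 5261 captured cells with a median of 26239 UMIs and the BAT library 7009 with a median of 26411. The Myh11-high share of the cells within the limits was 3.59% in WAT (Clopper-Pearson interval 3.07 to 4.18) and 2.07% in BAT (1.73 to 2.45). Myh11-high cells were slightly deeper than the other cells, with median UMIs of 30755 against 26804.5 in WAT and 28064 against 26290 in BAT. Every sum was scaled to CPM, the UMIs of a gene per 1000000 UMIs of the set. With all cells thinned to 10000 UMIs and Myh11-high cells chosen at 2 UMIs, the log2 ratio of Acta2 was 1.63 in WAT and 1.20 in BAT, beside 1.71 and 1.30, and that of Pdgfra -0.76 and -0.63, beside -1.13 and -0.56. Of the barcodes, 9 occurred in both libraries, and no barcode was a Myh11-high cell in both.

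In cells marked as glial, myeloid or myogenic, types that should lack it, Myh11 did not exceed 2 UMIs. The part of free RNA in the Myh11 counts was not tested. None of the 48 glial and 32 myeloid cells of WAT held a Myh11 UMI, which allows shares of up to 6.25% and 9.38% of such cells, taken as 3 counts of the total. In BAT 4 of 67 glial cells (5.97%), 5 of 80 myeloid cells (6.25%) and 0 of 34 myogenic cells held one, with median depths of 19636, 26773.5 and 27282 UMIs. The share of all other cells with 1 to 4 Myh11 UMIs was 12.1% in WAT, above the bounds for glial and myeloid cells. In BAT it was 12.35%, inside the Clopper-Pearson intervals of the glial (1.65 to 14.59) and myeloid cells (2.06 to 13.99). None of the Myh11-high cells carried the glial, myeloid, myogenic, endothelial or mesothelial markers at the level used to mark those types, at least 3 of 5 markers and 10 UMIs in sum.

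The mix of male and female cells differed between the sets in WAT. Among cells with transcripts of Xist alone or of Y-linked genes alone, 46 of 155 Myh11-high cells of WAT were Y-only (29.68%, 22.6 to 37.5) against 20.2% of the other cells. In BAT the Y-only share was 16.1% (9.98 to 24) against 13.78%. Cells with both kinds of transcript, which in a mix of male and female pups can be doublets, were 3 of 160 Myh11-high cells (1.88%) against 2.56% of the other cells in WAT and 10 of 128 (7.81%) against 3.22% in BAT. The part of either difference in the gene ratios was not tested.

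Myh11 formed a continuous range with a long upper tail and no gap at 5 UMIs. In WAT 3773 cells had no Myh11 UMI, 519 had 1 to 4, 68 had 5 to 9, 40 had 10 to 19, 29 had 20 to 49 and 23 had 50 or more, up to 162. The BAT classes held 5314, 749, 82, 26, 15 and 5 cells, with a highest count of 81. At the threshold itself, 37 WAT and 52 BAT cells had exactly 4 UMIs and 23 and 26 cells exactly 5.

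**Figure D1:**
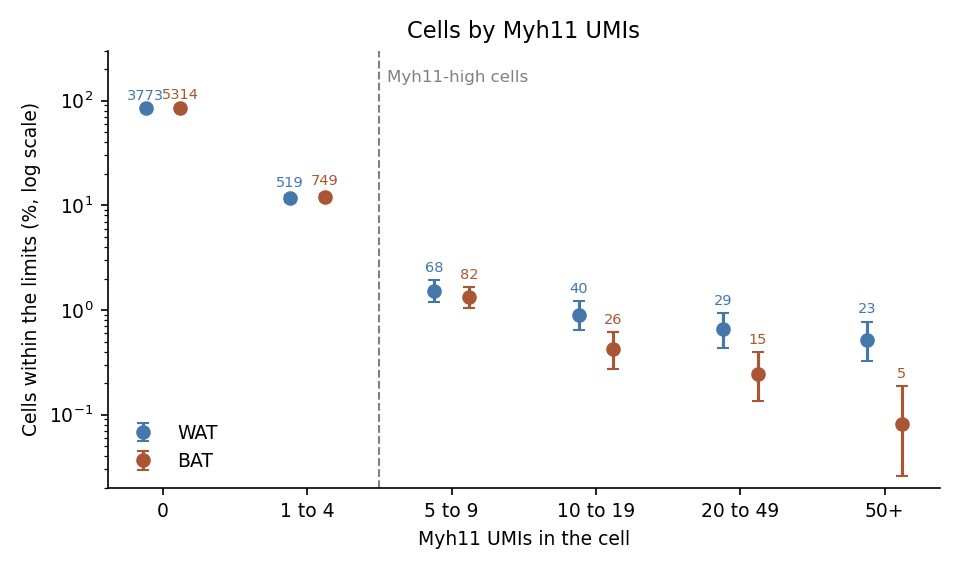
Cells within the limits by their Myh11 UMIs, as a percentage of each library on a log axis, with Clopper-Pearson 95% intervals and cell numbers above the points. The dashed line marks the threshold of 5 UMIs. WAT keeps 23 cells at 50 or more UMIs and BAT 5.

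Cells just inside the threshold are set beside those just outside. Acta2, smooth muscle alpha-actin, had a level of 6464 CPM in WAT cells with 4 Myh11 UMIs and 5575 CPM in those with 5, and 7367 and 9502 CPM in BAT. Pdgfra had 72.9 and 92.0 CPM in WAT and 79.4 and 72.1 CPM in BAT. Igfbp2, a secreted binding protein for insulin-like growth factors, had 7.91 and 5.49 CPM in WAT and 20.4 and 22.4 CPM in BAT. Groups 1 UMI apart overlap by counting error, so these values only describe the threshold, which marks a range of Myh11 levels.

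Contractile genes climbed along this range in both libraries. Acta2 had levels of 2955, 4917, 6120, 8122, 12261 and 23776 CPM from the WAT class without Myh11 to the class with 50 or more UMIs. In BAT its levels were 4164, 6419, 9548, 11211, 13450 and 27584 CPM. Actg2, the gamma-actin of visceral and vascular smooth muscle, went from 74.9 to 218.6, 422.9, 605.6, 1682 and 3412 CPM in WAT. In BAT Actg2 went from 188.9 to 388.3, 950.5, 820.9, 1310 and 1441 CPM, and so was lower at 10 to 19 than at 5 to 9 Myh11 UMIs. The actin genes share long identical coding stretches, and how far the counting split their reads was not measured here.

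Igfbp2 and Tinagl1, a secreted matrix protein of the basement membrane, had their highest levels at the top of the range. Igfbp2 had levels of 3.60, 6.97, 16.6, 52.2, 65.8 and 566.5 CPM across the WAT classes. In BAT it had 5.68, 11.5, 113.6, 11.1, 155.3 and 1799 CPM, out of order at 10 to 19 UMIs. Tinagl1 went from 8.15 CPM without Myh11 to 866.2 CPM at 50 or more UMIs in WAT and from 7.37 to 1239 CPM in BAT.

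Fibroblast genes were lowest at the upper end, where Dcn and Col1a1 dropped mainly in the last class. Pdgfra had levels of 119.6, 104.7, 79.1, 48.8, 39.0 and 9.75 CPM across the WAT classes and 83.7, 74.0, 59.9, 62.1, 35.7 and 14.9 CPM across the BAT classes, where 10 to 19 UMIs was out of order. Its median over WAT cells was 3, 2, 2, 1, 0 and 0 UMIs. Dcn, decorin, stood at 614.1 CPM in WAT cells with 20 to 49 Myh11 UMIs and at 131.6 CPM in those with 50 or more, against 469.2 CPM without Myh11. In BAT Dcn went from 340 CPM at 20 to 49 UMIs to 14.9 CPM at 50 or more. Col1a1, a chain of type I collagen, was at 4439 and 2394 CPM in these 2 upper WAT classes and at 4470 and 1433 CPM in BAT. The 50-or-more class of BAT held 5 cells, and its values rest on them.

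The label mural-like was checked by the fixed lists along the range. At 50 or more Myh11 UMIs, 24 of 25 contractile genes at 10 CPM or more were at least 2-fold above the other cells in WAT, with Smoc2 below them, and 22 of 27 in BAT, where all genes gave 7.95% and 13.4%. Of the fibroblast and preadipocyte genes, 10 of 14 and 8 of 13 were at least 2-fold below, where all genes gave 13.6% and 16.8%. Counting only genes that reach 10 CPM in the other cells, so that none enters through the Myh11-high cells, 20 of 21 contractile genes in WAT and 19 of 24 in BAT were higher, beside 4.66% and 8.58% of all genes. At 5 to 9 UMIs 8 of 22 contractile genes in WAT and 13 of 25 in BAT were that much higher (all genes 0.992% and 1.58%), with Des lower in BAT. Over genes that reach 10 CPM in the other cells, 7 of 21 and 13 of 24 were higher, beside 0.462% and 0.794% of all genes. None of 14 and 13 fibroblast genes was that much lower at 5 to 9 UMIs (all genes 0.807% and 0.902%). Fibroblast genes thus stood near the other cells at 5 to 9 UMIs, with Pdgfra already at 79.1 against 117.7 CPM in WAT, and were low at 50 or more. The label goes against the lower classes, so the whole set is called Myh11-high here. Sums over a class do not show which genes single cells hold together.

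**Figure D2:**
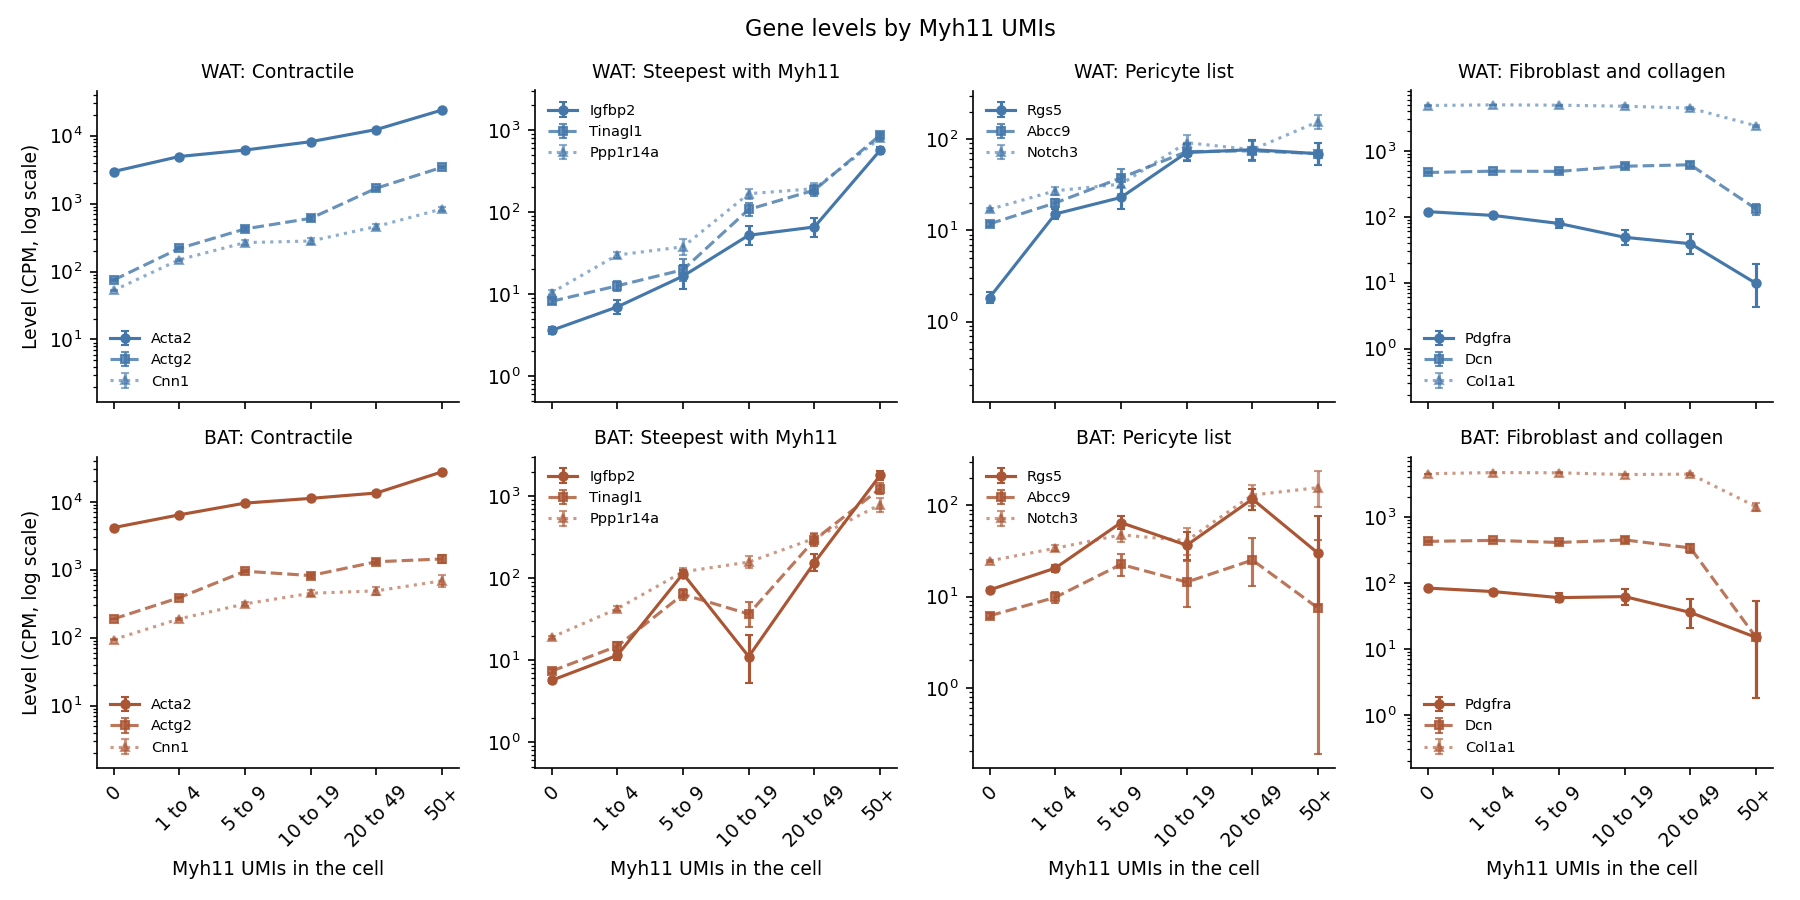
Summed level of 12 genes in CPM (log axis) in cells grouped by Myh11 UMIs, WAT above and BAT below, with exact Poisson 95% intervals as bars. Acta2 reaches 23776 and 27584 CPM in the last class, where Pdgfra is at 9.75 and 14.9 CPM.

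The number of genes apart from the other cells grew along the range. Among genes with at least 50 CPM in either set, 21 of 3801 (0.552%) were at least 2-fold higher and 16 (0.421%) at least 2-fold lower in WAT cells with 5 to 9 Myh11 UMIs. In WAT cells with 20 or more UMIs they were 270 of 3955 (6.83%) and 212 (5.36%). The BAT numbers were 47 of 3610 (1.3%) and 11 (0.305%) at 5 to 9 UMIs and 293 of 3856 (7.6%) and 161 (4.18%) at 20 or more. A gene that reaches 50 CPM only in the class itself is higher largely by that filter. Among genes that reach 10 CPM in the other cells, 41 of 8869 (0.462%) were higher in WAT at 5 to 9 UMIs. At 50 or more UMIs 413 (4.66%) were. In BAT these counts were 70 of 8819 (0.794%) and 757 (8.58%). The classes differ in their number of cells and so in counting error, whose part in these counts was not tested.

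Over all Myh11-high cells of WAT, 273 of 9180 genes with at least 10 CPM in either set were at least 2-fold higher than in the other cells (2.97%) and 146 at least 2-fold lower (1.59%), Myh11 itself left out. In BAT 198 of 9096 genes were higher (2.18%) and 82 lower (0.901%). The median log2 ratio over all these genes was -0.04 in each library. A gene that reaches 10 CPM only in the Myh11-high cells is higher largely by that filter. Among genes that reach it in the other cells, 136 of 8869 were higher in WAT (1.53%) and 104 of 8819 in BAT (1.18%), with the same 146 and 82 lower. The counts of the gene lists below are over genes that reach 10 CPM in the other cells, called reached genes, and are to be read beside these shares and a median of -0.05 over all reached genes in each library. Of 8884 genes counted in both libraries, 165 were higher in both, which is 69.62% of the 237 higher in WAT and 89.19% of the 185 higher in BAT. These counts of higher genes take in genes that reach 10 CPM only in the Myh11-high cells. The overlap among reached genes was not counted, so nothing is read from these shares. The 40 lower in both were 32.0% of 125 and 65.57% of 61, and no gene passed in opposite directions.

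**Figure D3:**
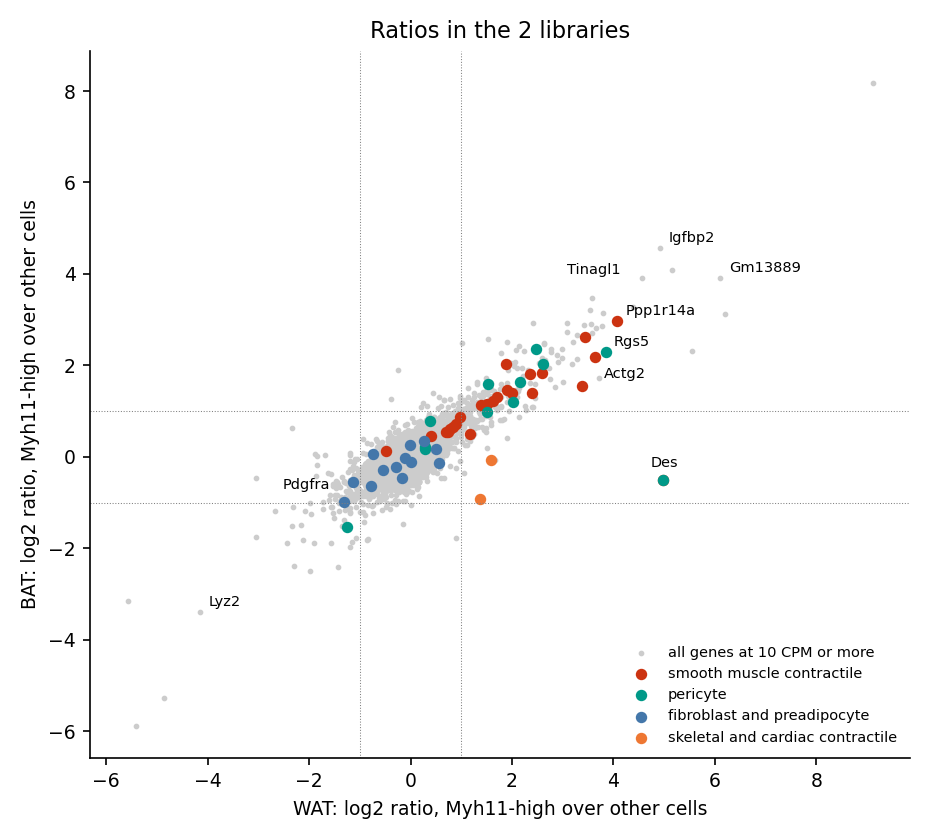
Log2 ratio of Myh11-high over other cells in WAT (x axis) and BAT (y axis) for genes with at least 10 CPM in both comparisons, with dotted lines at 2-fold. Igfbp2 lies at 4.92 and 4.56, while Des lies at 4.99 in WAT and -0.50 in BAT.

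The genes that name these cells were as follows. Myh11 lies at chr16:14194535-14291372 on the minus strand (GRCm38, protein coding, as are the next 4) and chose the cells, with summed levels of 825.8 CPM in WAT and 395.5 CPM in BAT against 7.32 and 7.05 CPM in the other cells. Acta2 (chr19:34241090-34255590, minus strand) was at 10524 against 3209 CPM in WAT, a log2 ratio of 1.71 (1.7 to 1.73). In BAT Acta2 was at 11010 against 4463 CPM, a ratio of 1.30 (1.29 to 1.32). Acta2 was found in 99.11% of the other cells of WAT, so it separated the sets by level and not by presence. Its median cell was at 8077 CPM in WAT and 9730 CPM in BAT, against 2776 CPM in the other WAT cells.

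Actg2 (chr6:83512905-83536265, minus strand) was at 1171 against 93.5 CPM in WAT and 980.8 against 215.3 CPM in BAT. The log2 ratios were 3.65 (3.60 to 3.69) and 2.19 (2.14 to 2.24). It had a UMI in 138 of 160 and 121 of 128 Myh11-high cells. Abcc9 (chr6:142587862-142702315, minus strand), the sulfonylurea receptor subunit of a potassium channel of mural cells, was at 57.7 against 12.9 CPM in WAT and 20.5 against 6.64 CPM in BAT. Its log2 ratios were 2.16 (1.98 to 2.34) and 1.63, and it had a UMI in 88 of 160 and 42 of 128 cells. In glial cells the share with an Actg2 UMI was 20.83% in WAT and 37.31% in BAT, and the share with an Abcc9 UMI 0 of 48 and 2 of 67. Whether the Actg2 UMIs of glial cells are free RNA or reads shared with other actins was not tested.

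Igfbp2 (chr1:72824503-72852474, plus strand) was at 122.4 against 4.04 CPM in WAT and 152.4 against 6.45 CPM in BAT. The log2 ratios were 4.92 (4.75 to 5.09) and 4.56 (4.42 to 4.71). Most Myh11-high cells had none of it: 38 of 160 and 30 of 128 held an Igfbp2 UMI, and the 10 richest cells held 69.29% and 87.04% of its UMIs. The high ratio of Igfbp2 thus came from a minority of the cells. No glial or myeloid cell of WAT and 0 of 67 glial and 1 of 80 myeloid cells of BAT held an Igfbp2 UMI, but 21 of 34 myogenic BAT cells did.

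Of 30 smooth muscle contractile genes, 13 of 21 reached genes were at least 2-fold higher in WAT and 14 of 24 in BAT, none lower, with median log2 ratios of 1.62 and 1.18, beside 1.53% and 1.18% of all reached genes higher. The largest ratio at 50 CPM or more was that of Ppp1r14a, which inhibits myosin phosphatase, at 217.8 against 12.9 CPM in WAT (log2 4.07, 3.96 to 4.19) and 173.7 against 22.2 CPM in BAT (2.97, 2.85 to 3.09). Ppp1r12b, a targeting subunit of myosin phosphatase, had the smallest at this level, 0.40 in WAT and 0.45 in BAT.

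Other contractile genes, named after their values were seen, were as follows. Tagln, the actin-binding protein transgelin, was at 4056 against 1428 CPM in WAT and 4292 against 1940 CPM in BAT, log2 ratios of 1.51 and 1.15. Cnn1, calponin, had ratios of 2.60 and 1.83, and Myl9, the regulatory light chain of smooth muscle myosin, 1.91 and 1.47. Mylk, myosin light chain kinase, had ratios of 1.88 and 2.04 and Lmod1, the actin nucleator leiomodin, 2.35 and 1.80. Synpo2, an actin-bundling protein, stood further apart in WAT, at 3.39 against 1.553 in BAT. Cald1, caldesmon, stayed below 2-fold at 0.78 and 0.60.

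Some markers of mature smooth muscle were at 0 or in few cells. Pln, phospholamban, the brake on the calcium pump, had no UMI in any Myh11-high cell of either library, which allows up to 0.590 CPM in WAT and 0.760 CPM in BAT. Kcnmb1, the smooth muscle subunit of the calcium-activated potassium channel, had 11 UMIs in 9 WAT cells and 10 in 7 BAT cells. It was rarer still among the other cells, with 4 UMIs in all of WAT and 18 in all of BAT. Genes under 10 CPM in the other cells enter no list count.

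Des, the intermediate filament desmin of muscle, went apart between the libraries. It was at 40.7 against 1.28 CPM in WAT, a log2 ratio of 4.99 (4.68 to 5.30), and at 7.09 against 10.1 CPM in BAT, a ratio of -0.50. The 34 myogenic cells among the other BAT cells held Des at 1456 CPM. Without cells marked as another type the ratio was 4.97 in WAT and 2.31 (1.69 to 2.87) in BAT. In WAT 35 of 160 cells held Des, and 10 of them held 80.68% of its UMIs.

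Of the 30 regulators of smooth muscle listed, 5 of 17 reached genes were at least 2-fold higher and 1 lower in WAT, and 3 of 17 higher and none lower in BAT (medians 0.27 and 0.17). Among genes at 50 CPM or more Fhl1, a LIM protein of muscle, had the largest ratio, at 99.4 against 14.5 CPM in WAT (2.78, 2.63 to 2.92) and 123.8 against 25.3 CPM in BAT (2.29, 2.15 to 2.43). Sox9, a transcription factor of cartilage precursors, was lowest at 32.1 against 74.1 CPM in WAT (-1.21, -1.44 to -0.98) and 46.3 against 89.7 CPM in BAT (-0.95). Myocd, myocardin, the coactivator that switches on smooth muscle genes with serum response factor, was low but far apart, at 27.6 against 2.82 CPM in WAT (3.29, 2.99 to 3.57) and 17.7 against 2.79 CPM in BAT (2.67). Srf, serum response factor itself, did not reach 2-fold, with ratios of 0.96 and 0.64. Myocd, Srf, Foxs1 and Nr2f2 are named here after their values were seen. Foxs1, a forkhead factor of perivascular cells, had ratios of 1.54 and 1.60, and Nr2f2, the vein and mesenchyme receptor COUP-TFII, 1.40 and 1.28.

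Serum response factor binds the CArG box, 10 bases with a core of 6 A or T. The 250 bases before the start of each gene in RefSeq (GRCm38.p6) were searched for it, once exactly and once with 1 other base allowed in the core, and the pattern reads the same on both strands. The stretches shown hold such boxes, in capitals, in genes of the contractile lists or among the most raised, each on the gene's own strand and lying before the RefSeq start used.

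Acta2: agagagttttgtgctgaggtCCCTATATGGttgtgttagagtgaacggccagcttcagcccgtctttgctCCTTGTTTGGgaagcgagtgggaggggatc

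Myl9: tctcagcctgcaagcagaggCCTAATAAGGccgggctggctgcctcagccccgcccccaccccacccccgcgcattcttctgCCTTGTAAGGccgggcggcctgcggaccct

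Fhl1: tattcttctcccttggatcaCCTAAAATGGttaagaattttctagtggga

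Myom1: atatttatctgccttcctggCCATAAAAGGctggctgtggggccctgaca

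The Acta2 stretch is chr19:34255378-34255477 on the minus strand and holds 2 boxes with 1 other base in the core, beginning 84 and 34 bases before the start. The Myl9 stretch is chr2:156775283-156775394 on the plus strand, with an exact box 161 bases before the start and a second, with 1 other base, at 99. Fhl1 (chrX:56779561-56779610) and Myom1 (chr17:71019438-71019487), both on the plus strand, hold an exact box at 102 and 99 bases before the start. The gene bounds printed for single genes come from GENCODE, whose starts can differ: the Acta2, Fhl1 and Myom1 stretches lie inside its bounds for these genes and the Myl9 stretch before them. Myh11, Tagln and Actg2 had no entry in the table.

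An exact box lay in 482 of 32851 promoters (1.467%). Of the genes at 10 CPM or more in both libraries, 108 of the 7108 with an entry held one (1.519%), and of the genes higher in both, 10 of 120 (8.33%). Those 10 were Dmd, Fbxl22, Fhl1, Hopx, Ldb3, Lmcd1, Myl9, Myom1, Prune2 and Stbd1. With 1 other base allowed the shares were 646 of 7108 genes (9.088%) and 22 of 120 genes (18.3%). The genes higher in both take in genes that reach 10 CPM only in the Myh11-high cells, and the share among reached genes was not counted. The count was not tested, and a match is a stretch of letters and not a shown binding site.

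Of 22 pericyte genes, 4 of 8 reached genes were at least 2-fold higher in WAT and 3 of 10 in BAT, and 1 lower in each, with medians of 0.95 and 0.75. A further 5 in WAT and 3 in BAT reached 10 CPM only in the Myh11-high cells. Among genes at 50 CPM or more Rgs5, a G protein brake that marks pericytes, had the largest ratio, at 51.4 against 3.56 CPM in WAT (3.85, 3.62 to 4.08) and 63.6 against 12.99 CPM in BAT (2.29, 2.10 to 2.48). Gjc1, the gap junction protein connexin 45, had the smallest ratio at 50 CPM or more, 0.29 and 0.17. Anpep, the peptidase CD13, was lower, at 5.31 against 12.6 CPM in WAT (-1.25) and 4.56 against 13.1 CPM in BAT (-1.53).

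Kcnj8, the pore of the same potassium channel as Abcc9, had ratios of 2.47 and 2.35, and Mcam, the adhesion receptor CD146, 2.61 and 2.03. Pdgfrb, the receptor through which endothelium recruits mural cells, barely differed, at 183.6 against 149.6 CPM in WAT and 165.8 against 143.8 CPM in BAT. Cspg4, the proteoglycan NG2, had ratios of 0.39 and 0.77. Vtn, vitronectin, had 0 UMIs in WAT and 2 in BAT. Higd1b, a mitochondrial protein that marks pericytes, had 95 UMIs in 160 Myh11-high cells of WAT against 5 in all other WAT cells. In BAT there were 9 against 2 UMIs. It lay in 22 and 4 Myh11-high cells, and it is named, like Kcnj8, Mcam and Cspg4, after its values were seen.

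Of 35 channel and receptor genes of vascular tone, 7 of 15 reached genes were at least 2-fold higher in WAT and 2 of 10 in BAT, none lower, with medians of 0.66 and 0.61. A further 5 in WAT and 10 in BAT reached 10 CPM only in the Myh11-high cells. Among genes at 50 CPM or more Gucy1a1, a subunit of the nitric oxide receptor guanylate cyclase, had the largest ratio in WAT, at 76.7 against 12.6 CPM (2.60, 2.44 to 2.76) and had a ratio of 1.98 in BAT. Pde3a, a cyclic nucleotide phosphodiesterase, led the genes at 50 CPM or more in BAT with 160.0 against 62.3 CPM (1.36, 1.24 to 1.48) and had 1.35 in WAT. The smallest ratios at this level were those of Cacna1c, the L-type calcium channel, in WAT (0.19) and of Atp2a2, the calcium pump of the reticulum, in BAT (0.41).

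Of this list, 3 receptors are named after their values were seen. Adra1b, an alpha-1 adrenergic receptor, had ratios of 2.99 and 2.15, and Agtr1a, the angiotensin II receptor, 1.79 and 1.31. P2rx1, the ATP-gated channel of smooth muscle, was found mainly in these cells, with 93 UMIs against 4 in all other WAT cells and 80 against 12 in BAT, giving log2 ratios of 9.11 (7.71 to 11.02) and 8.18. It lay in 18 of 160 and 10 of 128 Myh11-high cells, so these totals come from few cells.

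The basement membrane list had 2 of 14 reached genes at least 2-fold higher in each library and none lower, with medians of 0.17 and 0.14. They were Col4a1 and Col4a2. Col4a1, a chain of type IV collagen, was at 1173 against 344.3 CPM in WAT (1.77, 1.73 to 1.81) and 962.1 against 342.1 CPM in BAT (1.49, 1.44 to 1.54). Col4a2, its partner chain, had ratios of 1.57 and 1.46. Lama5, the laminin alpha-5 chain, reached 10 CPM only in the Myh11-high cells and was at 27.9 against 0.786 CPM in WAT (5.15, 4.77 to 5.54) and 14.9 against 0.880 CPM in BAT (4.09), in 59 and 28 Myh11-high cells. Col15a1, a collagen at the outer face of basement membranes, was lowest at -0.79 and -0.65.

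Of 25 fibrillar collagen and elastic fibre genes, 3 were at least 2-fold higher in WAT and 1 in BAT, none lower, with medians of -0.00 and 0.02. At 50 or more Myh11 UMIs 3 of 25 were higher and 10 lower in each library, with medians of -0.29 and -0.71. In that class 7.95% of all genes in WAT and 13.4% in BAT were higher, and 13.6% and 16.8% lower. Col8a1, a short-chain collagen of vessel walls, led in WAT at 130.8 against 29.9 CPM (2.13, 2.01 to 2.25) and had 0.87 in BAT. Eln, elastin, led in BAT at 300.5 against 145.1 CPM (1.05, 0.97 to 1.14) and had 1.09 in WAT. Mfap4, a microfibril protein, was lowest at -0.84 and -0.73. Col1a1 was at 4387 against 4878 CPM in WAT and 4483 against 4557 CPM in BAT.

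Of the adhesion and cytoskeleton genes, 5 of 21 reached genes were at least 2-fold higher in WAT and 2 of 21 in BAT, none lower, with medians of 0.61 and 0.49. Among genes at 50 CPM or more Lims2, a focal adhesion adaptor, led in WAT (55.3 against 7.52 CPM, 2.88) and had 2.22 in BAT. Itga1, the collagen-binding integrin chain, led in BAT (212.4 against 55.4 CPM, 1.94, 1.84 to 2.04) and had 2.20 in WAT. Svil, supervillin, in WAT (0.05) and Itgav, the integrin alpha-V chain, in BAT (0.01) had the smallest ratios at this level.

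Genes known as targets of the tension-sensitive coactivators YAP and MRTF had 3 of 11 reached members at least 2-fold higher in WAT and 3 of 12 in BAT, with none lower and medians of 0.82 and 0.90. Of the genes at 50 CPM or more Crim1, a membrane protein that binds growth factors, led both libraries at 431.9 against 74.1 CPM (2.54, 2.48 to 2.61) and 311.2 against 75.5 CPM (2.04, 1.96 to 2.13). Ccn2, connective tissue growth factor, had ratios of 1.59 and 1.62 and Ankrd1, a stretch-induced muscle protein just under 50 CPM in WAT, 3.00 and 1.63. Ccn1, its relative Cyr61, in WAT (0.22) and Axl, a receptor kinase, in BAT (0.11) had the smallest ratios.

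Ligands and receptors of the TGF-beta family split. Of 24 genes, 4 of 21 reached genes were at least 2-fold higher and 1 lower in WAT and 4 of 21 higher and none lower in BAT, with medians of -0.06 and 0.09. Tgfb2, a TGF-beta ligand, was at 175.5 against 28.9 CPM in WAT (2.60, 2.49 to 2.71) and 103.3 against 23.0 CPM in BAT (2.17). Bmp4, a bone morphogenetic protein, led in BAT at 53.2 against 10.998 CPM (2.27, 2.06 to 2.48) and was at 14.6 against 4.21 CPM in WAT (1.79). Tgfbr3, the co-receptor betaglycan, was lowest in both, at 88.9 against 231.6 CPM in WAT (-1.38) and 69.1 against 135.2 CPM in BAT (-0.97).

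Of 13 Notch genes 5 were counted in each library, and Notch3, the Notch receptor of arterial mural cells, was the one at least 2-fold higher, at 74.0 against 18.3 CPM in WAT (2.01, 1.85 to 2.17) and 59.8 against 25.9 CPM in BAT (1.21, 1.01 to 1.39). Hes1, a target of Notch signals, was at 58.0 against 51.0 CPM in WAT and 50.4 against 57.7 CPM in BAT. The insulin-like growth factor list had 1 of 9 reached genes higher and 2 lower in WAT and none of 9 past 2-fold in BAT, with medians of 0.15 and 0.09. Igfbp2 reached 10 CPM only in the Myh11-high cells. Igf2, a fetal growth factor, was at 133.2 against 306.1 CPM in WAT (-1.20) and 138.5 against 134.8 CPM in BAT (0.04). Igf1 was at 80.7 against 170.3 CPM in WAT (-1.08) and 31.4 against 58.7 CPM in BAT (-0.90).

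Over all Myh11-high cells, 2 of 14 reached fibroblast and preadipocyte genes were at least 2-fold lower in WAT, beside 1.59% of all genes, and none of 13 in BAT, none higher, with medians of -0.14 in each. Dlk1, a preadipocyte surface protein, was lowest at 205.0 against 505.8 CPM in WAT (-1.30, -1.39 to -1.21) and 191.2 against 382.2 CPM in BAT (-0.999, -1.10 to -0.90). Pdgfra had ratios of -1.13 (-1.31 to -0.96) and -0.56. Dcn was at 474.8 against 472.1 CPM in WAT and 397.8 against 429.0 CPM in BAT. The highest were Lum, lumican, in WAT (0.55) and Mfap5, a microfibril protein, in BAT (0.35).

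Pdgfra was absent more often among Myh11-high cells. It had 0 UMIs in 61 of 160 WAT cells (38.12%) against 14.24% of the other cells and in 49 of 128 BAT cells (38.28%) against 22.68%. With every cell thinned to 10000 UMIs, which left out 1 WAT cell, a Pdgfra UMI was found in 36.25% of Myh11-high and 61.71% of other WAT cells, unthinned 61.88% and 85.76%. In BAT the thinned shares were 35.16% and 48.71%. The lower share of cells with Pdgfra was thus also present at equal depth. A Pdgfra UMI was found in 3 of 48 glial and 8 of 32 myeloid cells of WAT and in 7 of 67 and 16 of 80 in BAT, below all of these unthinned shares.

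Of the adipogenic genes, 2 of 13 reached genes were at least 2-fold higher and 1 lower in WAT and 0 of 15 higher and 1 lower in BAT, with medians of -0.07 and -0.29. The lower gene was Lpl in WAT and Cd36 in BAT. Without cells marked as other types, and over genes at 10 CPM in either set, 4 of 15 were higher and 1 lower in WAT with a median of 0.12, and none of 15 passed in BAT. In that WAT setting 285 of all 9151 genes were higher and 129 lower. It takes in genes that reach 10 CPM only in the Myh11-high cells, which are higher largely by that filter. The 2 WAT counts are thus not on the same basis, and nothing is read from the change in median. Fabp4, a fatty acid carrier of adipocytes, capillary endothelium and macrophages, led in WAT at 231.4 against 62.3 CPM (1.89, 1.80 to 1.98) and was at 174.4 against 131.8 CPM in BAT (0.40). Its level was 796.7 CPM in WAT cells with 50 or more Myh11 UMIs and 895.8 CPM in the 5 BAT cells, and the ratios without those cells were 0.98 and 0.18. Myeloid cells of these libraries held it at 314.2 and 251.3 CPM. Fabp5, its epidermal relative, led in BAT at 990.2 against 568.6 CPM (0.80). Lpl, lipoprotein lipase, was the lowest of the genes at 50 CPM or more in both, at 166.5 against 399.6 CPM in WAT (-1.26) and 212.7 against 359.4 CPM in BAT (-0.76).

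Cd36, a fatty acid transporter, had no UMI in any Myh11-high cell, at least 14.88-fold lower than in the other WAT cells and at least 13.95-fold lower in BAT, against a floor of 3 counts over the set. The other cells held 1061 and 1819 Cd36 UMIs, of which 35 and 184 lay outside the cells marked as other types, so the reference level came mostly from those cells.

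Gene names with which the study described its own populations were also counted. It chose them on these libraries, so they are not independent evidence. Of 12 genes of its fibro-adipogenic progenitor-like cells, 5 of 10 were at least 2-fold higher in WAT and 5 of 9 in BAT, none lower, with medians of 1.11 and 1.28. Cryab, a small heat shock protein, led at 500.9 against 115.0 CPM in WAT (2.12) and 437.2 against 139.9 CPM in BAT (1.64), with glial cells at 1439 and 1608 CPM.

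Of 5 genes of its differentiating white fibro-adipogenic cells, 2 of 2 reached genes were at least 2-fold higher in WAT and 2 of 3 in BAT, and the remaining 3 and 2 reached 10 CPM only in the Myh11-high cells. Gm13889, a gene of unknown role, led in WAT at 66.3 against 0.960 CPM (6.11, 5.801 to 6.43) and was at 19.5 against 1.30 CPM in BAT (3.91). Npr3, the clearance receptor for natriuretic peptides, had ratios of 2.40 and 1.10. Cd9, a tetraspanin, had the smallest, 1.11 and 0.39. Of 8 genes of its committed adipogenic precursors, 6 were lower and 1 higher in WAT and 1 lower in BAT, with medians of -1.23 and -0.80. Cyp7b1, an oxysterol hydroxylase, was lowest in WAT at 30.1 against 150.6 CPM (-2.32, -2.56 to -2.09) and had -1.09 in BAT.

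**Figure D4:**
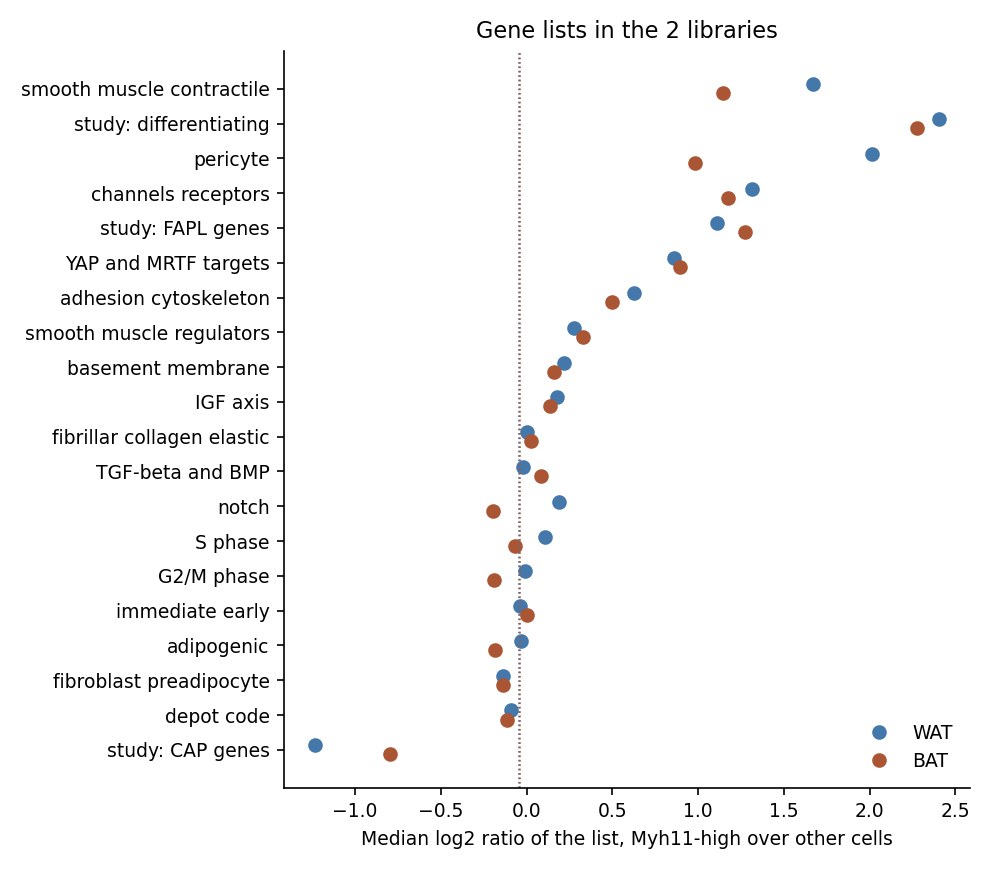
Median log2 ratio of Myh11-high over other cells for 20 gene lists in WAT and BAT, over members with at least 10 CPM in either set, with dotted lines at the medians of all genes (-0.04). Here genes that reach 10 CPM in either set are included. Contractile genes reach 1.67 and 1.15, and fibroblast and preadipocyte genes lie at -0.14 in both.

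None of 36 reached S phase genes in WAT or 33 in BAT and none of 50 or 49 G2/M genes passed 2-fold over all Myh11-high cells, with medians from -0.19 to 0.10. In the 5 BAT cells with 50 or more Myh11 UMIs 22 of 49 G2/M genes were lower, where 16.8% of all genes were. Of 35 S phase genes 2 were higher and 3 lower in these 5 cells. In the 20 BAT cells with 20 or more UMIs 7 of 34 S phase and 2 of 50 G2/M genes were lower. Their medians were -0.34 and -0.12, beside -0.08 over all 9280 genes at 10 CPM or more. With the threshold for Myh11-high cells moved to 20 UMIs, 743 genes at 10 CPM or more were lower in BAT. In WAT cells with 20 or more UMIs 1 of 37 S phase genes was lower and 1 of 51 G2/M genes higher, where 9304 genes were counted in all. With the threshold moved to 20 UMIs, 525 genes were higher and 582 lower in WAT. At 50 or more UMIs WAT had 4 of 38 S phase genes lower, and 4 of 51 G2/M genes higher and 1 lower. Of the immediate early and stress genes none of 12 reached genes passed 2-fold in either library. Those that reached 10 CPM only in the Myh11-high cells were Hspa1a and Hspa1b, which code for the same heat-inducible chaperone and cannot be told apart by counting with certainty. The myofibroblast list had 3 of 11 higher and none lower in each library, with medians of -0.18 and 0.06. At 50 or more Myh11 UMIs it had 2 higher and 6 lower in each, with medians of -1.64 and -1.66. All genes of that class gave 7.95% and 13.4% higher and 13.6% and 16.8% lower. Acta2 led it in WAT, and Inhba, the activin A subunit, led it in BAT at 216.0 against 76.5 CPM (1.50). Its lowest were Cthrc1, a secreted collagen regulator, in WAT (-0.96) and Postn, periostin, in BAT (-0.46). Depot patterning genes had 1 of 11 reached genes lower in WAT and 1 of 10 in BAT and none higher, with medians of -0.09 and -0.12.

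Further genes among the most extreme at 50 CPM or more were as follows. In WAT Parm1, a membrane mucin-like protein, was at 73.2 against 5.37 CPM (3.77, 3.58 to 3.95), and in BAT at 72.9 against 10.0 CPM (2.87, 2.68 to 3.05). Mustn1, a small nuclear protein of muscle on the contractile list, had ratios of 3.45 and 2.63. Myom1, the sarcomere protein myomesin, was at 57.9 against 4.14 CPM in WAT (3.805), and Galnt16, which starts mucin-type sugar chains, at 64.7 against 6.99 CPM (3.21). Tinagl1 was at 206.2 against 8.73 CPM in WAT (4.56, 4.44 to 4.69) and 125.1 against 8.36 CPM in BAT (3.90, 3.75 to 4.05), and Gm12153 at 67.5 against 5.34 CPM in WAT (3.66).

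Some of the lowest genes lost their difference when cells marked as other types were left out of the reference. Lyz2, lysozyme of macrophages, had ratios of -4.15 in WAT and -3.41 in BAT, which became 0.64 (-0.16 to 1.35) and 0.60. Mylpf, a skeletal myosin light chain, went from -3.17 to 0.57 in BAT. Lgals3, galectin-3, went from -2.30 to -1.45 in WAT and from -2.39 to -0.66 in BAT. Spp1, osteopontin, stayed low in WAT, at -2.67 with and -2.37 without them.

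Other low genes kept their difference without the marked cells. Gas7, a cytoskeletal protein first known from nerve cells, was at 12.8 against 64.7 CPM in WAT (-2.34, -2.71 to -1.99), and Sema3a, a secreted guidance cue, at 12.2 against 53.2 CPM (-2.12). Dlgap1, a postsynaptic scaffold, had ratios of -1.97 in WAT and -1.25 in BAT, and Opcml, a cell adhesion protein, -1.84 in WAT. In BAT Bmper, a binder of bone morphogenetic proteins, was at 43.8 against 103.0 CPM (-1.23), Pde7b, a phosphodiesterase, at 22.8 against 53.4 CPM (-1.23) and Adgrl3, the adhesion receptor latrophilin 3, at 44.8 against 103.6 CPM (-1.21). Mt2, metallothionein, had -1.18 in BAT.

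Defining markers of other cell types were at or near 0 in Myh11-high cells. Of the glial markers, Cdh19 had 0 UMIs in both libraries, Sox10 had 0 in WAT and 2 in BAT, and Erbb3 had 1 in WAT and 0 in BAT. The 5 myeloid markers summed to 6.49 and 5.06 CPM, mainly Csf1r, with Laptm5 at 0 in BAT. The 5 endothelial markers summed to 3.15 and 2.03 CPM, led by Emcn and Kdr, and Cdh5 had 1 UMI in WAT and 0 in BAT. No endothelial marker exceeded 10 UMIs in the 160 or 128 cells.

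The 5 myogenic markers summed to 0.394 CPM in WAT and 2.79 CPM in BAT, where Chrna1 was highest. Of the mesothelial markers, Krt19, a keratin, had 12.8 CPM in WAT and 7.60 CPM in BAT, beside 7.74 and 6.32 CPM in the other cells. The erythroid markers summed to 0 and 0.506 CPM. Skeletal and cardiac contractile genes showed 2 of 2 higher in WAT, Acta1 and Myl4, while in BAT 9 of 11 were lower with a median of -2.10. Without the marked cells 3 BAT genes still reached 10 CPM. Genes that reach it through the Myh11-high cells alone had to be higher, so nothing is read from either small count.

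Igfbp2 and Rgs5 were each rich in few Myh11-high cells. At least 10 Igfbp2 UMIs were found in 19 WAT and 11 BAT cells, at least 10 Rgs5 UMIs in 7 and 12, and both in 1 cell of each library. The remaining 135 and 106 cells had neither. With so few rich cells, an overlap of this size says nothing on whether the genes avoid or share cells. The 10 richest cells held 70.11% and 72.91% of the Rgs5 UMIs.

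The Igfbp2-rich cells stood at the top of the Myh11 range in WAT. Their Myh11 counts ran from 8 to 144 UMIs with a median of 76.0 in WAT and from 5 to 55 with a median of 21.0 in BAT. Acta2 was at 23809 CPM in the WAT and 15770 CPM in the BAT cells. Pdgfra had 0 UMIs in 16 of 19 and 7 of 11, and Dcn fewer than 5 UMIs in 15 and 8. Most of these cells thus had little Pdgfra and Dcn, while Col1a1 was still at 2605 and 3407 CPM, beside 4878 and 4557 CPM in the other cells.

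The Rgs5-rich cells had more Dcn and Col1a1, with Dcn at 555.3 and 782.9 CPM beside 180.4 and 223.8 CPM in the Igfbp2-rich cells. Their Myh11 medians were 14 UMIs in WAT and 7.5 in BAT, and Acta2 was at 9772 and 12504 CPM. Pdgfra had 0 UMIs in 4 of 7 and 6 of 12, Dcn had fewer than 5 UMIs in 3 of 7 and 3 of 12, and Col1a1 was at 4450 and 4685 CPM. Rgs5 was not confined to Myh11-high cells, since 8 other WAT cells and 63 other BAT cells held at least 10 UMIs. Igfbp2 reached 10 UMIs in 4 and 24 other cells. Sub-sets of this size were not tested against each other.

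**Figure D5:**
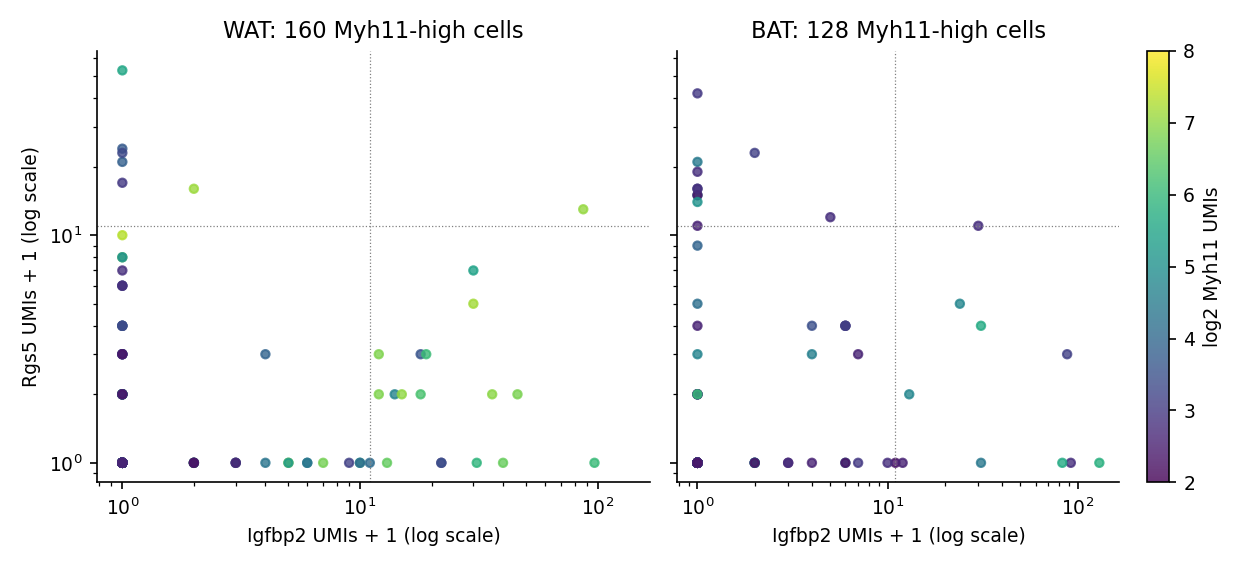
Igfbp2 against Rgs5 UMIs (both plus 1, log axes) in each Myh11-high cell of WAT and BAT, coloured by log2 Myh11 UMIs, with dotted lines at 10 UMIs. In each library 1 cell lies beyond both lines, while 18 and 10 lie beyond the Igfbp2 line alone and 6 and 11 beyond the Rgs5 line alone.

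Between the depots, 121 of 9124 genes with at least 10 CPM in either set were at least 2-fold higher in white than in brown Myh11-high cells (1.33%) and 103 at least 2-fold lower (1.13%), with a median log2 ratio of 0.05 over all genes. Both sets share their depot with the other cells of their library, so the ratio in those cells is given beside each named gene.

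Patterning genes led the white side. Hoxc10, a posterior Hox gene, had 600 UMIs (118.1 CPM) in white and 0 in brown Myh11-high cells, at least 155.4-fold higher against a floor of 3 counts, and differed by 10.43 on the log2 scale between the other cells. Hoxc9, its neighbour, was at 53.1 against 6.58 CPM (3.01, 2.43 to 3.65; other cells 2.61). Pcdh11x, a protocadherin, had a ratio of 2.19 (other cells 1.54) and Epha3, an ephrin receptor, 1.94 (1.90). Gm13889 was higher in white Myh11-high cells, 1.77 (1.41 to 2.14), but not among the other cells (-0.44). White Myh11-high cells reach further up the range, with 23 of 160 at 50 or more Myh11 UMIs against 5 of 128, and Gm13889 was at 240.0 CPM in those 23, at 61.4 against 4.44 CPM at 10 to 19 UMIs and at 4.60 against 16.8 CPM at 5 to 9. Without the cells of 50 or more Myh11 UMIs, 121 genes were higher in white and 108 in brown Myh11-high cells, beside 121 and 103 with them. Beyond these counts and those at thresholds of 10 and 20 UMIs, the part of this mix in the depot ratios was not tested.

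On the brown side C1qtnf3, a secreted C1q relative, was at 78.7 CPM against 7.48 CPM in white Myh11-high cells (-3.40, -3.92 to -2.91), with -1.52 between the other cells. Grik1, a glutamate receptor, had a ratio of -2.83 (other cells -1.77), Cthrc1 -2.58 (-1.98), Mecom, a zinc finger transcription factor, -2.46 (-1.80) and Bmp4 -1.87 (-1.38). Zic1, a patterning factor of the brown depot, had 78 UMIs in brown and 0 in white Myh11-high cells, at least 33.46-fold higher. Between the other cells Zic1 had 1 UMI in white and 4445 in brown. Of the 121 genes higher in white Myh11-high cells, 107 had the same sign between the other cells of the same libraries and 51 were at least 2-fold apart there. Of the 103 higher in brown, 98 and 46 were. The same shares over all 9124 genes were not counted, so nothing is read from these counts about the Myh11-high cells.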

How the data were processed

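Single-cell 3′ RNA libraries of cultured stromal cells, 1 from white and 1 from brown fat, were analysed. The deposited matrices hold UMI counts per gene and cell that the authors made with Cell Ranger 7.0.1 on mm10, per the labels. All 32285 listed genes were read. Cells were filtered by the stated limits, which are the only treatment of doublets since no doublet caller was run. Counts were summed over cells and scaled to CPM, and log2 ratios carry conditional binomial intervals. The members and gene lists were chosen with earlier results of these data known. Named genes were the 5 markers, the ends of each list at 50 CPM or more, defining markers near 0, the 12 highest and 8 lowest genes per library and the 5 largest differences each way between depots, Xist and Y genes apart. Other genes were chosen after their values were seen. Of the 480 listed symbols, 2 were not matched. On simulated counts of 8992 WAT and 8935 BAT genes, intervals held the true ratio for 94.93% and 95.3%, and all 50 genes of each fold size were recovered. The simulation drew counting error alone, without variation between cells, so it checks the computation and not the coverage in real cells. Python 3.11.15, numpy 2.4.6, scipy 1.17.1 and pandas 2.3.3 were used. Of the alternatives, 1 was added after seeing the data, and promoter sequences are RefSeq GRCm38.p6. The summed level of the glial markers is not reported here.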

Additional observations from a re-analysis of the deposited data

Results flagged for a closer look

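Myh11 was also found in cells outside the limits, which enter no comparison. Of the 809 WAT cells removed, 34 held at least 5 Myh11 UMIs (4.20%), 25 of them above an upper limit and 8 below a lower one, with a highest count of 83. Of the 818 BAT cells removed, 23 did (2.81%), 15 above and 7 below, with a highest count of 76. Among them 4 WAT and 6 BAT cells also held at least 10 Igfbp2 UMIs. Cells above the upper limits can hold more than 1 cell, which was not tested.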

How the results depend on the processing

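No paired analysis was possible because each depot has 1 library. The Myh11-high share was 5.86% of WAT and 4.10% of BAT cells at a threshold of 3 Myh11 UMIs, 2.07% and 0.743% at 10, and 1.17% and 0.323% at 20. With cells thinned to 10000 UMIs and a threshold of 2 it was 2.92% in BAT. Genes at least 2-fold lower in WAT were 82 at 3 UMIs, 336 at 10 and 582 at 20, and genes higher in WAT were 525 at 20. In BAT 128, 312 and 597 genes were higher and 54, 214 and 743 lower at 3, 10 and 20 UMIs. Genes higher in white than brown Myh11-high cells were 212 at 10 and 456 at 20 UMIs and 214 after thinning, and genes higher in brown were 201, 359 and 156. At 50 CPM the counts were 108 higher and 57 lower in WAT, 78 and 13 in BAT, and 28 white and 20 brown between depots. At 1 CPM they were 640 and 670, 574 and 629, and 679 and 690, with more genes counted. Without the cells of 50 or more Myh11 UMIs, 180 genes were higher in WAT. The cause of these shifts was not tested beyond the number of cells and genes each setting takes in. For 12 genes in each library, 211 of 216 alternative log2 ratios kept their sign and the 5 that changed it were all ratios of Dcn, but 127 lay outside the counting interval of the reported ratio and 89 within it. Depth limits genes with few UMIs: a gene with 0 counts could still be at up to 0.590 CPM in the WAT and 0.760 CPM in the BAT cells.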
